A study of Homo sapiens with 12 samples.

Results

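Expression of 10 genes that encode enzymes of fatty acid synthesis and desaturation was examined in MDA-MB-231 cells after knockdown of NONO or of PKM2. The genes were taken by name from the tables of both experiments and joined on the gene identifier, and all 10 (ACLY, ACSS2, ACACA, FASN, ELOVL6, ELOVL5, SCD, FADS1, FADS2 and FADS3) were found among the 60558 genes that the tables share. MDA-MB-231 is an established human cell line of triple-negative breast cancer (TNBC), and the study used it to look for genes that depend on the NONO/PKM2 complex. Each knockdown was made with siRNA and was set against a separate negative control (NC). No library was common to the 2 experiments, and 3 poly(A)-selected RNA-seq libraries stood for each of 4 groups, namely NONO knockdown, the NC of that experiment, PKM2 knockdown and the NC of that experiment. All groups are the same parental line with no other allele or agent named in the labels, which also do not say whether the repeats were separate cultures, so P values measure the spread between these libraries. In bulk RNA, fewer cells that make a transcript and less transcript per cell cannot be told apart.

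The estimated counts summed to between 19861762 and 28455268 per library. NC replicate 1 of the NONO experiment and PKM2 knockdown replicate 3 stood apart from their replicates, with a chi-square per degree of freedom of 8.94 or more against 2.54 for the other pair of that NC group and of 11.4 or more against 3.47 for the other pair of PKM2 knockdown libraries. The targeted genes checked the labels. NONO fell from 373 ± 16.7 to 62.7 ± 1.4 CPM (counts scaled to library size by TMM, mean ± SD, n = 3) in the NONO knockdown, and PKM, the gene that encodes PKM2, fell from 2270 ± 56.7 to 226.7 ± 8.28 CPM in the PKM2 knockdown. All 4 markers of the line were present in the 12 libraries. VIM was listed at 3291 to 4466 TPM (the length-scaled unit of the deposited tables), and its group means were 3787 and 4413 TPM in the NC and knockdown groups of the NONO experiment and 3383 and 3402 TPM in those of the PKM2 experiment. CD44 was at 275 to 330 TPM in all libraries. MSN was lower in both knockdowns, at 551 and 424 TPM in the NONO experiment and 583 and 394 TPM in the PKM2 experiment, and AXL was at 340 and 332 TPM in the former and 370.0 and 256 TPM in the latter. ESR1 reached at most 0.12 and PGR at most 0.41 TPM in any library. ERBB2, another receptor gene used to define TNBC, was at 13.7 to 35.2 TPM. Among 6 luminal and epithelial markers, CDH1 was at or near 0 (at most 0.06 TPM), EPCAM, GATA3 and FOXA1 stayed at 4.37 TPM or lower, and the summed level, carried by KRT8 and KRT18, was 416 to 429 TPM in the NC group and 606 to 633 TPM in the knockdown group of the PKM2 experiment. Of the white blood cell markers, CD3E and HBB were at 0 in all groups and PTPRC reached at most 0.15 TPM, whereas CD68 was at 134.3 TPM in the NC and 53.8 TPM in the knockdown group of the PKM2 experiment. The part of these shifts in the results below was not tested. Adipocyte markers summed to at most 1.66 TPM.

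Cells build fatty acids in the cytosol from acetyl-CoA. ACLY makes acetyl-CoA from citrate and ACSS2 makes it from acetate, ACACA carboxylates it to malonyl-CoA, and FASN joins these units into palmitate. ELOVL6 lengthens palmitate towards stearate, and SCD places a double bond into these saturated chains to give monounsaturated fatty acids such as oleate. FADS2 and FADS1 act in turn on the essential polyunsaturated fatty acids of the diet, with ELOVL5 lengthening the chain between them, to give arachidonic acid and related lipids, and FADS3 is a relative that desaturates sphingoid bases. Transcription of most of these genes is known to be driven by the sterol regulatory element-binding proteins, which SREBF1 and SREBF2 encode and which SCAP escorts and INSIG1 retains.

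Promoter sequences are shown for SCD, FADS1 and FADS2, which fell more than 2-fold in the PKM2 knockdown, and for FADS3, which fell in both knockdowns. ACSS2 and ACLY also fell in both, and their windows are not shown. RefSeq windows on GRCh38.p14, from 250 bases before to 50 bases after an annotated start, were found for 9 of the 10 genes (14 windows), FASN being the one without an entry. Capitals mark matches on either strand to the SRE (TCACNCCAC), the CCAAT box (CCAAT), the GC box (GGGCGG), the E-box (CACGTG) and the CRE (TGACGTCA), none of which contains another.
SCD, chr10:100346983-100347282, plus strand: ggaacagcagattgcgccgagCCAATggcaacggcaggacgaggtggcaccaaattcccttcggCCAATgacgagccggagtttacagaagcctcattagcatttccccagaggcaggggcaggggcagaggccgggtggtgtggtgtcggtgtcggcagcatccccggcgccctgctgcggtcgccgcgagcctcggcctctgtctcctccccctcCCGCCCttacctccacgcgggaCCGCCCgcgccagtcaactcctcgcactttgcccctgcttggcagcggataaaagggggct
FADS1, chr11:61816954-61817253, minus strand: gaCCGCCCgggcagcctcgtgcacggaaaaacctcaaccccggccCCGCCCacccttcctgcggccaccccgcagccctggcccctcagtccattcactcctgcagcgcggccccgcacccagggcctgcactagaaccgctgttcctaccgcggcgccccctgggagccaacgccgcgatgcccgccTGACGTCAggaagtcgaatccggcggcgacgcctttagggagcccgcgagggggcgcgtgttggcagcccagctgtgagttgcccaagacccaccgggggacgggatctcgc
FADS2, chr11:61816154-61816453, plus strand: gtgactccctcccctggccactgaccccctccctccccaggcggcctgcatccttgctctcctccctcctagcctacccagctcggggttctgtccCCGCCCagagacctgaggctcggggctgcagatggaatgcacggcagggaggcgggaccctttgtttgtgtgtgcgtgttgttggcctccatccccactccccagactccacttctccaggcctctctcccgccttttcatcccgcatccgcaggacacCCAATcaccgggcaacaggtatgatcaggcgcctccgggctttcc
FADS3, chr11:61891496-61891795, minus strand: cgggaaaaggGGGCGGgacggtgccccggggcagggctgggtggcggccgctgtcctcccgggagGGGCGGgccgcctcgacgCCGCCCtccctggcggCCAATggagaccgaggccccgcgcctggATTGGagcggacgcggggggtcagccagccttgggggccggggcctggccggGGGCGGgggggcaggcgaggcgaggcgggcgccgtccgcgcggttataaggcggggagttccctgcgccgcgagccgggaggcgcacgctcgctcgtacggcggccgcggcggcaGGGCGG

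The SCD window held 2 CCAAT boxes, at -229 and -186 from the start, and 2 GC boxes. The FADS1 window held a CRE at -62 and 2 GC boxes but no CCAAT box. This FADS2 window, 1 of 2 for that gene, held 1 CCAAT box and 1 GC box, while the other FADS2 window held no match. The FADS3 window was the one with the most matches of these 4, with 5 GC boxes and 2 CCAAT boxes. A CCAAT box was found in 9 and a GC box in 11 of the 14 windows, against 34.6% and 45.0% of all 35116 windows. By gene, these were in at least 1 window of 7 and of 8 of the 9 genes, although several members had more than 1 window. The SRE letters were found in 0 of the 14 windows and in 1.1% of all windows, the E-box in ELOVL5 (7.3% of all windows), and the CRE in ELOVL5 and FADS1 (1.8%). These matches describe the letters in these windows and are not evidence of binding.

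Levels were compared between genes only per transcript length, in TPM. Among the NC libraries of the NONO experiment FASN (211 ± 2.75 TPM, SD, n = 3) and ACLY (184 ± 1.21 TPM) were highest, and ACSS2 (25.2 ± 1.49 TPM) was lowest. SCD (154 ± 22.1 TPM), FADS3 (147 ± 7.64 TPM), FADS2 (139.7 ± 10.4 TPM) and ELOVL5 (128 ± 2.21 TPM) followed, and each of these neighbours lay within the summed SD of the next. FADS1 (86.2 ± 4.61 TPM), ELOVL6 (39.0 ± 4.75 TPM) and ACACA (37.6 ± 1.72 TPM) came below, the last pair not separated by their spread. The NC group of the PKM2 experiment had FASN (189 ± 12.1 TPM) and ACLY (188 ± 2.17 TPM) together at the top and ACSS2 (20.6 ± 0.785 TPM) again at the bottom. ELOVL6 was not compared across the tables, since its length was 3090 bases in the NONO table and 6570 bases in the PKM2 table. With counts divided by the table's gene length instead of the deposited TPM, ACLY was first in all 4 groups and FASN at rank 3 to 5, so the order of this pair depended on the length used.

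After PKM2 knockdown the order was different. ACLY (132.6 ± 13.1 TPM), ELOVL5 (123 ± 10.9 TPM) and FASN (113 ± 7.21 TPM) were the 3 highest, with neighbours inside their spread, while SCD (45.4 ± 4.53 TPM) and FADS1 (26.2 ± 3.02 TPM) stood at ranks 6 and 7. With counts divided by the table's gene length, FADS3 was at rank 3 and FASN at rank 4, and SCD and FADS1 kept ranks 6 and 7. The 10 genes together summed to 1070 to 1166 TPM in the NC libraries of the PKM2 experiment and to 604 to 674 TPM after PKM2 knockdown. In the NONO experiment the sum was 1121 to 1178 TPM in the NC group and 945 to 1062 TPM in the knockdown group. Within each experiment the groups did not overlap.

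**Figure D1:**
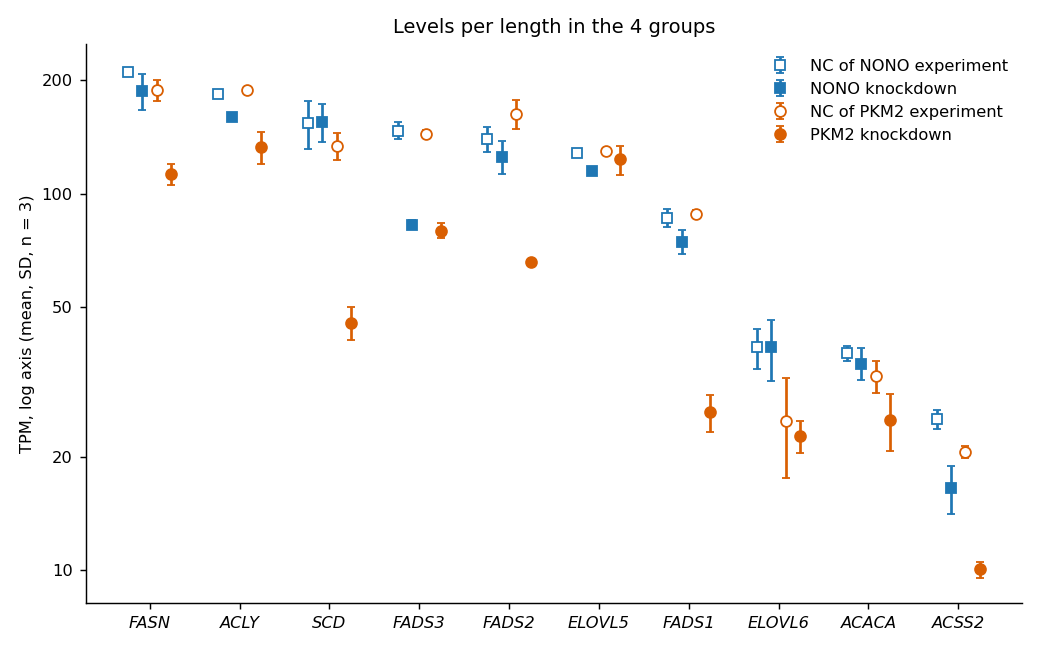
Level per transcript length of the 10 genes in the 4 groups, in TPM on a log axis (points are means and bars SD of 3 libraries; open symbols NC, filled symbols knockdown). FADS1 drops from 88.5 to 26.2 TPM and SCD from 134 to 45.4 TPM in the PKM2 knockdown, while ELOVL5 stays between 115 and 129 TPM in all groups.

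In the NONO knockdown, 4 of the 10 genes fell, and none by more than 2-fold. FADS3 and ACSS2 fell clearly, by 42.0% and 36.2%, and ACLY and ELOVL6 fell by 9.42% and 14.8%. The desaturases SCD, FADS1 and FADS2, the elongase ELOVL5 and the core synthesis enzymes FASN and ACACA did not pass the test. A gene was called where the Benjamini-Hochberg adjusted P of edgeR's quasi-likelihood test over all genes was below 0.05, a rule under which 17.2% of the 14832 genes tested were called lower and 16.2% higher. The members' counts were 4 lower and 0 higher, and 0 members were DEGs (fold change above 2 and unadjusted P below 0.05), a rule that 2.16% of all genes met in the lower direction. The median log2 fold change of the 10 genes was -0.12, beside -0.01 for all genes tested.

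FADS3 was at 172, 183 and 164 CPM in the NC libraries and at 100.4 ± 0.322 CPM (SD) in the 3 NONO knockdown libraries, none above 100.6 CPM. The groups were far apart, and the knockdown libraries were nearly equal. The log2 fold change was -0.79 ± 0.05 (standard error, SE; adjusted P = 9.61e-07, edgeR), and the call was kept whichever library was left out. ACSS2, which makes acetyl-CoA from acetate, was at 28.1, 34.3 and 35.1 CPM in NC and at 22.1, 20.3 and 19.9 CPM after NONO knockdown. All knockdown libraries lay below all NC libraries, and the log2 fold change was -0.65 ± 0.09 (SE; adjusted P = 0.000336, edgeR).

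ACLY, the citrate-cleaving enzyme, was at 566, 554 and 548 CPM in NC and at 517, 496 and 499 CPM after NONO knockdown. The groups did not overlap, but the difference was small, with a log2 fold change of -0.14 ± 0.04 (adjusted P = 0.0126, edgeR). Without NONO knockdown replicate 2 or 3 the call for ACLY was lost (adjusted P = 0.075 and 0.0637). ELOVL6 was at 116.6, 94.1 and 101.1 CPM in NC and at 84.8, 86.9 and 93.9 CPM after knockdown, the closest libraries of the groups being less than 1 CPM apart. Its log2 fold change was -0.23 ± 0.07 (adjusted P = 0.0307, edgeR), the call was kept in 3 of 6 fits with a library left out, the value was -0.13 without NC replicate 1, and on the deposited TPM it was -0.01 (adjusted P = 0.971, limma).

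Of the 6 genes that were not called, the 3 desaturases shared an order among libraries. FADS1 was at 241, 259 and 256 CPM in NC and at 252, 219.8 and 218 CPM after NONO knockdown. FADS2 was at 262, 306 and 285 CPM in NC and at 289, 249.5 and 251 CPM after knockdown. SCD was at 492, 637 and 619 CPM in NC and at 688, 549 and 593 CPM after knockdown. In each of these desaturases NC replicate 1 was the lowest NC library and knockdown replicate 1 the highest knockdown library, and the groups overlapped. In FASN, ACACA and ELOVL5, NC replicate 1 was instead the highest NC library. The low and high libraries of the desaturases were also the extremes for the regulators SREBF1 (95.4 CPM in NC replicate 1 and 156 CPM in knockdown replicate 1) and INSIG1 (75.6 and 159 CPM). The log2 fold changes were -0.13 ± 0.06 for FADS1 (adjusted P = 0.108, edgeR), -0.11 ± 0.07 for FADS2 (adjusted P = 0.234) and 0.07 ± 0.10 for SCD (adjusted P = 0.647). Without NC replicate 1, the library that stood apart, FADS1 (-0.15, adjusted P = 0.0132) and FADS2 (-0.16, adjusted P = 0.0147) were called lower and SCD was at -0.03, so that 6 members were called. Without NONO knockdown replicate 1, FADS1 (-0.20, adjusted P = 0.0187) and FASN (-0.15, adjusted P = 0.0486) were called. Without NONO knockdown replicate 2 the count was 2, FADS3 and ACSS2.

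FASN, the synthase itself, was at 917, 863 and 847 CPM in NC and at 914, 787 and 788 CPM after NONO knockdown. ACACA, which commits acetyl-CoA to synthesis, was at 165, 161 and 156 CPM in NC and at 165, 151 and 163 CPM after knockdown. ELOVL5, the elongase of polyunsaturated chains, was at 225, 222 and 221 CPM in NC and at 215, 206 and 212 CPM after knockdown. Only the ELOVL5 libraries of these 3 genes were separated by group. None was called, and the 95% confidence intervals of the log2 fold change were -0.21 to 0.05 for FASN, -0.11 to 0.09 for ACACA and -0.16 to 0.01 for ELOVL5. On the deposited TPM, ELOVL5 was called lower (-0.15, adjusted P = 0.0351, limma).

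**Figure D2:**
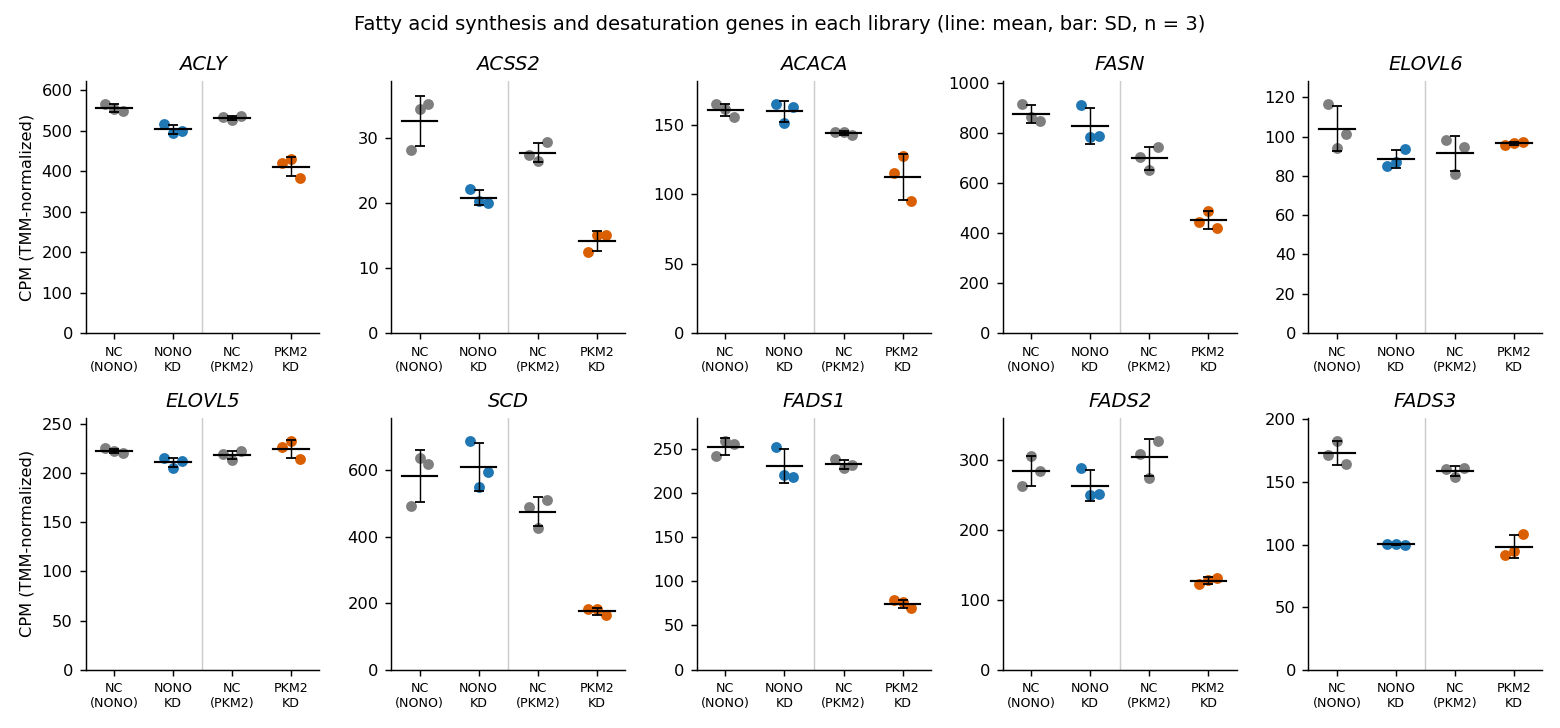
TMM-scaled CPM of each gene in all 12 libraries, each axis starting at 0 (points are libraries, lines are means and bars SD of 3 libraries; KD is knockdown, and the name in brackets gives the experiment of an NC group). FADS3 falls in both knockdowns, and SCD, FADS1 and FADS2 separate from their NC group in the PKM2 knockdown, where FADS1 goes from 232 to 74.7 CPM.

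In the PKM2 knockdown, 8 of the 10 genes fell. The desaturases FADS1, SCD and FADS2 fell most, by 67.8%, 63.0% and 58.0%, followed by ACSS2 (48.8%), FADS3 (37.97%) and FASN (35.4%), and ACLY (22.8%) and ACACA (22.0%) fell least. The elongases ELOVL5 and ELOVL6 did not pass the test. In this experiment 34.7% of the 15524 genes tested were called lower and 33.6% higher, and the members' counts were 8 lower and 0 higher. The 3 DEGs among them were FADS1, SCD and FADS2, beside 13.8% of all genes that were DEGs in the lower direction. The median log2 fold change of the members was -0.66, against -0.01 for all genes. All 8 calls were kept with any of the 6 libraries left out.

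FADS1 was at 238, 228 and 231 CPM in the NC libraries and at 78.5, 76.0 and 69.7 CPM in the PKM2 knockdown libraries. Every knockdown library was below every NC library by more than the whole spread within either group, and the log2 fold change was -1.64 ± 0.05 (adjusted P = 5.03e-10, edgeR). SCD, the enzyme of monounsaturated fatty acids, was at 488, 426 and 510 CPM in NC and at 181, 182 and 164 CPM after PKM2 knockdown. These groups were also far apart, and SCD changed by -1.43 ± 0.07 on the log2 scale (adjusted P = 8.05e-09, edgeR). FADS2 was at 308, 275 and 327 CPM in NC and at 122, 128 and 132 CPM after knockdown. It fell less than FADS1, with a log2 fold change of -1.25 ± 0.06 (adjusted P = 1.21e-08, edgeR), and the FADS2 to FADS1 ratio of TPM was 1.71 to 2.04 in NC and 2.35 to 2.85 after PKM2 knockdown. In the NONO experiment that ratio was 1.59 to 1.67 in NC and 1.64 to 1.73 after knockdown.

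FADS3 was at 160, 154 and 161 CPM in NC and at 91.7, 94.8 and 109 CPM after PKM2 knockdown. Its log2 fold change of -0.69 ± 0.06 (adjusted P = 1.54e-06, edgeR) was close to that after NONO knockdown. ACSS2 was at 27.3, 26.4 and 29.3 CPM in NC and at 12.4, 15.0 and 15.1 CPM after knockdown, so that the least abundant of these genes was reduced in all 3 libraries, with a log2 fold change of -0.96 ± 0.09 (adjusted P = 1.6e-06, edgeR). It was a DEG as well when PKM2 knockdown replicate 2 or 3 was left out.

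FASN was at 705, 652 and 744 CPM in NC and at 446, 489.6 and 421 CPM after PKM2 knockdown. Its groups did not overlap, and the log2 fold change was -0.63 ± 0.06 (adjusted P = 3.65e-06, edgeR). ACLY was at 534, 527.5 and 537 CPM in NC and at 419, 430.3 and 384 CPM after knockdown, a change of -0.37 ± 0.05 (adjusted P = 3.76e-05, edgeR). ACACA was at 145, 145 and 143 CPM in NC and at 115, 128 and 94.97 CPM after knockdown, and its knockdown libraries ranged more widely (SD 16.5 CPM) than its NC libraries (SD 1.16 CPM). It changed by -0.36 ± 0.09 (adjusted P = 0.00275, edgeR) and by -0.24 without PKM2 knockdown replicate 3, its lowest library. In this experiment genes of high GC content tended to be lower after knockdown, with a median log2 fold change of 0.17 in the lowest and -0.29 in the highest of 20 GC bins, and the longest FASN transcript has a GC content of 65.3%. After the trend with length and GC was subtracted, FASN was at -0.27, ACLY at -0.22, FADS2 at -1.03 and ELOVL5 at -0.04. These genes were judged to have moved, FADS2 by less than 1.5 times. FADS1 (-1.60), SCD (-1.38), ACSS2 (-0.86) and FADS3 (-0.61) were not.

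The elongases among the members, ELOVL5 and ELOVL6, did not follow. ELOVL5 was at 219, 214 and 223 CPM in NC and at 226.5, 233 and 214 CPM after PKM2 knockdown. ELOVL6 was at 98.3, 81.1 and 94.8 CPM in NC and at 95.8, 96.8 and 97.3 CPM after knockdown. The groups of both genes overlapped, and the log2 fold changes were 0.04 ± 0.05 for ELOVL5 (95% confidence interval -0.07 to 0.14, adjusted P = 0.487, edgeR) and 0.08 ± 0.07 for ELOVL6 (-0.07 to 0.23, adjusted P = 0.318).

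**Figure D3:**
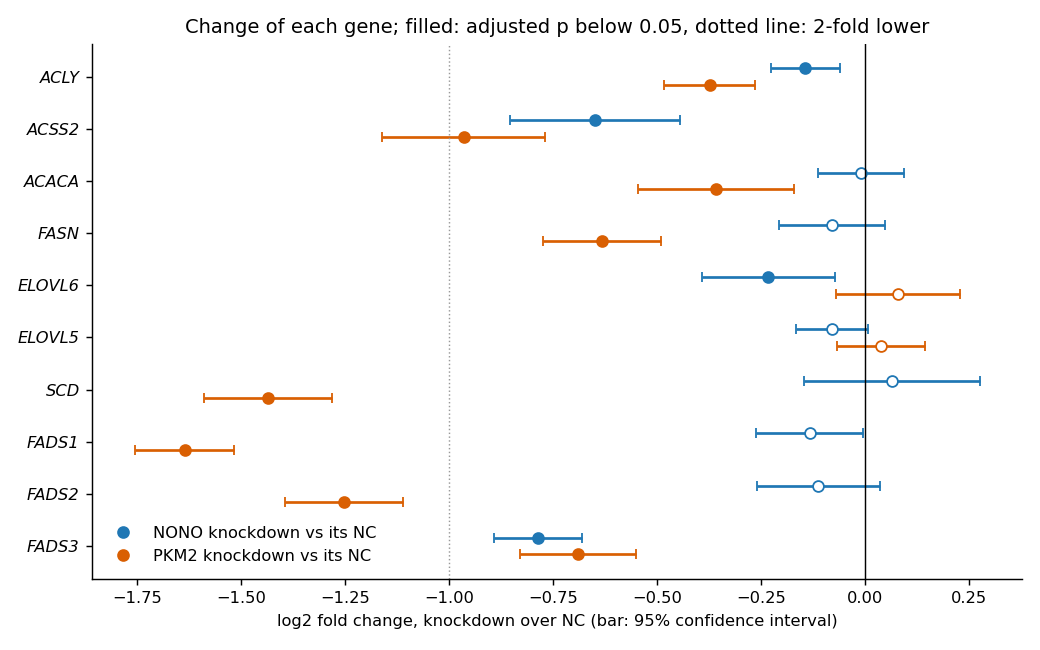
Log2 fold change of each gene over its own NC group in the NONO (blue) and the PKM2 (orange) knockdown, with 95% confidence intervals, from 3 libraries a group; filled points have an edgeR adjusted P below 0.05. FADS1, SCD and FADS2 lie beyond the dotted line of a 2-fold fall in the PKM2 knockdown, at -1.64, -1.43 and -1.25, and near 0 in the NONO knockdown.

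The change after PKM2 knockdown minus the change after NONO knockdown was tested directly, as an interaction over the 12 libraries. The desaturases of the main pathways differed most: FADS1 by -1.52 ± 0.08 (log2, SE; adjusted P = 1.75e-10, edgeR), SCD by -1.51 ± 0.13 (adjusted P = 4.93e-08) and FADS2 by -1.15 ± 0.10 (adjusted P = 4.68e-08), all lower in the PKM2 knockdown. Of the members, 7 were called lower, beside 27.4% of the 15995 genes tested, and 1 was called higher, beside 25.7%. FASN differed by -0.57 ± 0.10 (adjusted P = 8.46e-05), ACACA by -0.36 ± 0.11 (adjusted P = 0.00901) and ACLY by -0.24 ± 0.06 (adjusted P = 0.00418). These 6 differences were called in 12 of 12 fits with a library left out, but that of ACACA lost its call on TPM (-0.29, adjusted P = 0.168, limma). With the length and GC trend subtracted, the difference was -0.93 for FADS2, -0.28 for FASN and -0.14 for ACLY. ACSS2, lower in both knockdowns, differed by -0.33 ± 0.13 (adjusted P = 0.0484, edgeR), a call kept in 3 of 12 such fits and lost with NC replicate 1 of the NONO experiment left out (-0.23, adjusted P = 0.134). ELOVL6 was the gene called higher (0.30 ± 0.11, adjusted P = 0.0304), a call kept in 7 of 12 fits and lost on TPM, where the value was -0.09.

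FADS3, which fell in both experiments, showed no called difference between them. The value was 0.08 ± 0.08 (adjusted P = 0.433, edgeR), with a 95% confidence interval of -0.10 to 0.26, which leaves room for a difference of up to that size. ELOVL5 also showed no called difference (0.10 ± 0.06, adjusted P = 0.175), although it was called without PKM2 knockdown replicate 3 (0.14, adjusted P = 0.0407). The knockdowns shared no NC library, and the targeted genes also moved across them: PKM was 19.5% higher after NONO knockdown and NONO was 23.0% higher after PKM2 knockdown.

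FADS1, FADS2 and FADS3 lie side by side on chromosome 11 (GENCODE 29, GRCh38). FADS2 spans chr11:61792980-61867354 on the plus strand, FADS1 chr11:61799625-61829318 on the minus strand inside that span, and FADS3 chr11:61873519-61892051 on the minus strand. Exons of FADS1 and FADS2 share 490 bases on opposite strands, and how reads were assigned to a strand is not given in the sources used here, so counts from that stretch could go to either gene. FADS2 also shares 49 exon bases with FEN1. Of 16 annotated genes within 100 kb, a window chosen after the values were seen, 10 were tested. In the PKM2 knockdown they did not move as a block. MYRF, a membrane-bound transcription factor gene, fell by 2.04 on the log2 scale (adjusted P = 2.01e-10, edgeR) and RAB3IL1 fell by 2.47 (adjusted P = 8.85e-08), while FTH1, the ferritin heavy chain gene, rose by 1.02 (adjusted P = 2.67e-08), DAGLA by 0.93 (adjusted P = 7.74e-07) and TMEM258 by 0.60 (adjusted P = 1.78e-05). FEN1, a DNA flap endonuclease gene whose span overlaps those of TMEM258 and FADS2, rose by 0.24 (adjusted P = 0.0038). In the NONO knockdown FADS3, FEN1 (-0.49, adjusted P = 0.00025) and DAGLA (-0.35, adjusted P = 0.000971) were the genes of the window that were called.

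**Figure D4:**
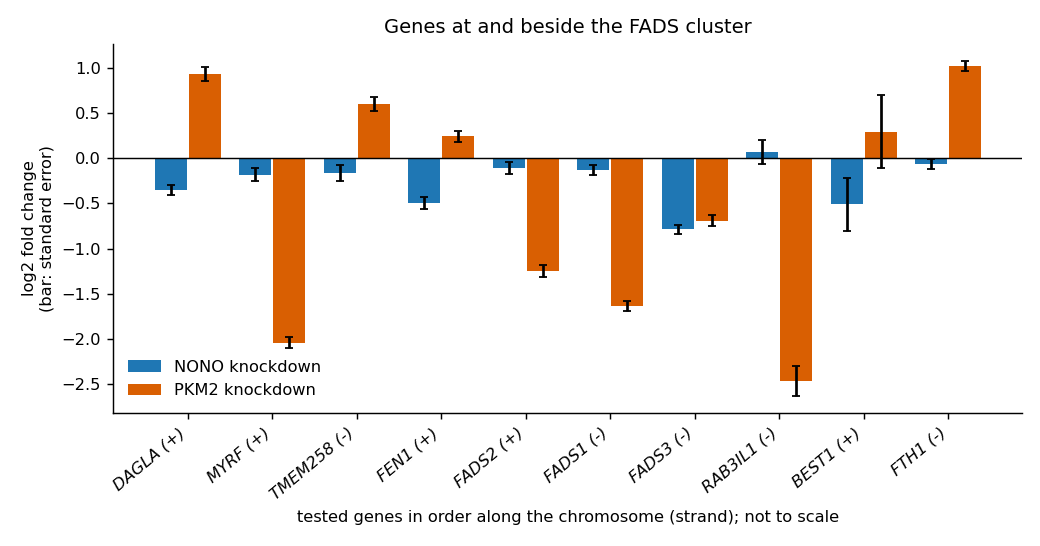
Log2 fold change over the own NC group of the 10 tested genes within 100 kb of the FADS genes, in their order on the chromosome and not to scale, with the strand in brackets (blue, NONO knockdown; orange, PKM2 knockdown; bars are standard errors). In the PKM2 knockdown, genes that fell (MYRF, FADS2, FADS1, FADS3, RAB3IL1) stand among genes that rose (DAGLA, TMEM258, FEN1, FTH1).

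The other members lie on different chromosomes. SCD spans chr10:100347124-100364834, ACSS2 chr20:34872146-34927962, ELOVL5 chr6:53267398-53349179 and ELOVL6 chr4:110045846-110199199. FASN (chr17:82078333-82098332), ACLY (chr17:41866908-41930542) and ACACA (chr17:37084988-37406818) are on chromosome 17. ACLY shares 156 exon bases with the antisense gene AC125257.2, which was listed at 229.5 and 126 TPM in the NC and knockdown groups of the NONO experiment and at 162 and 88.1 TPM in those of the PKM2 experiment, and without strand reads of the pair cannot be told apart there.

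Among 19 tested genes listed as regulators of lipogenic transcription, 9 were called lower and 3 higher in the difference between the knockdowns. Over all genes tested, the shares were 27.4% and 25.7%. The 7 regulators that were not called included SREBF2, INSIG1, INSIG2 and NFYA. SREBF1, which encodes the sterol regulatory element-binding protein most tied to fatty acid synthesis, was at 74.0, 72.1 and 77.1 CPM in the NC and at 40.2, 39.3 and 39.8 CPM in the PKM2 knockdown libraries. It fell by 0.90 on the log2 scale (SE 0.05, adjusted P = 3.81e-08, edgeR), with no overlap between the groups. In the NONO experiment SREBF1 was at 95.4, 129.9 and 119.7 CPM in NC and at 156, 129.6 and 134 CPM after knockdown. These groups overlapped, and the rise of 0.28 ± 0.10 (adjusted P = 0.0498, edgeR) was called in 2 of 6 fits with a library left out and was 0.17 without NC replicate 1. On TPM it was not called (0.20, adjusted P = 0.311, limma). The difference between the knockdowns was -1.20 ± 0.13 (adjusted P = 3.97e-07). With the length and GC trend subtracted, SREBF1 was at -0.63 after PKM2 knockdown and its difference at -0.95. SCAP, the escort protein, fell by 0.46 in the PKM2 knockdown (adjusted P = 3.89e-05). Its value after NONO knockdown was 0.02 (adjusted P = 0.819), and the changes differed by -0.49 ± 0.08 (adjusted P = 7.13e-05). With the length and GC trend subtracted, SCAP was at -0.18 after PKM2 knockdown and its difference at -0.24. SREBF2, which is more tied to cholesterol synthesis, fell by 0.33 in the PKM2 knockdown (adjusted P = 0.000109) and by 0.21 in the NONO knockdown (adjusted P = 0.0178), the latter called in 2 of 6 fits with a library left out and not on TPM (adjusted P = 0.0767, limma). Its value after PKM2 knockdown was -0.15 with the length and GC trend subtracted, and the difference did not pass the test (-0.13, adjusted P = 0.191). INSIG1, a retention protein and itself a known target of the pathway, was not called in either knockdown (0.40 after NONO knockdown, adjusted P = 0.06, and -0.01 after PKM2 knockdown, adjusted P = 0.939, edgeR). After NONO knockdown, however, INSIG1 was called higher in 2 of 6 fits with a library left out. Without the low-count filter it was called as well (0.41, adjusted P = 3.61e-12, edgeR). Its difference between the knockdowns (-0.42, adjusted P = 0.0918) was called in 2 of 12 such fits and without the filter (-0.44, adjusted P = 5.56e-06, edgeR).

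Of the 19 regulators tested of 20 listed, 11 fell and 4 rose in the PKM2 knockdown, and 4 fell and 6 rose in the NONO knockdown. Over all genes tested, 34.7% were called lower and 33.6% higher in the former, and 17.2% and 16.2% in the latter. The largest fall after PKM2 knockdown was that of MLXIPL, the carbohydrate-responsive factor, which was low in all libraries (2.26 to 2.82 CPM in NC and 0.436 to 0.663 CPM after knockdown). MLXIPL changed by -2.20 ± 0.28 (adjusted P = 2.06e-05, edgeR), or by -0.69 on log2(TPM + 1) by limma, where its call was lost without the filter (adjusted P = 0.0579). The largest rise was that of NR1H2, a liver X receptor, from 64.3, 61.8 and 63.1 CPM to 163, 166 and 179.9 CPM (1.43 ± 0.05, adjusted P = 1.1e-09). After NONO knockdown NFYA, a subunit of the factor that binds the CCAAT box, rose most, from 65.3, 59.5 and 65.7 CPM to 100.4, 100.7 and 98.1 CPM (0.65 ± 0.05, adjusted P = 4.62e-06), and INSIG2 fell most (-0.58 ± 0.13, adjusted P = 0.00648), a call lost on TPM (adjusted P = 0.0863, limma). The median of the list was -0.25 in the PKM2 and 0.02 in the NONO knockdown.

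The remaining steps around the 10 enzymes were followed in 8 further lists. Counts in each list stand beside 34.7% of all genes called lower and 33.6% called higher after PKM2 knockdown. After NONO knockdown these shares were 17.2% and 16.2%. For the genes of precursor supply and other acetyl-CoA enzymes, 6 of 6 tested, 2 fell and 2 rose after PKM2 knockdown. The largest fall was that of ACACB, the second acetyl-CoA carboxylase (-1.91, adjusted P = 3.99e-07, edgeR), which was not called on TPM (-0.79, adjusted P = 0.0877, limma). The largest rise was that of ME1, a malic enzyme that yields NADPH (0.51, adjusted P = 6.15e-06). After NONO knockdown 3 fell and 1 rose, led by ACSS1, the mitochondrial acetyl-CoA synthetase (-0.44, adjusted P = 0.0121), and again by ME1 (0.29, adjusted P = 0.00472, and 0.0674 on TPM by limma). The separate fatty acid synthesis pathway of mitochondria had 6 genes tested. None of these 6 was called in the NONO knockdown, whereas 2 fell and 3 rose in the PKM2 knockdown, with HSD17B8 (-1.997, adjusted P = 3.45e-05) and OXSM (0.70, adjusted P = 0.000245, and 0.0605 on TPM by limma) at the ends.

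Other elongases and enzymes of the elongation cycle (7 tested of 11) fell where they were called, 4 after PKM2 and 2 after NONO knockdown. HSD17B12, the reductase that every elongase works with, changed by -1.81 ± 0.06 after PKM2 knockdown (adjusted P = 4.07e-10, edgeR), while neither elongase among the members was called there. ELOVL7 changed by -1.04 ± 0.17 after NONO knockdown (adjusted P = 0.000705) and by -1.51 ± 0.20 after PKM2 knockdown (adjusted P = 2.85e-05). ELOVL1 also fell after PKM2 knockdown (-0.71 ± 0.06, adjusted P = 7.76e-07, edgeR). Among other desaturases and the proteins that hand electrons to desaturases (6 tested of 7), 3 fell and 2 rose after PKM2 knockdown and 3 fell and 1 rose after NONO knockdown. SCD5, a relative of SCD, changed by -0.97 ± 0.09 after PKM2 knockdown (adjusted P = 9.74e-07), and CYB5R4, a cytochrome b5 reductase, by 0.54 ± 0.06 (adjusted P = 6.72e-06). CYB5A, a cytochrome b5 that serves SCD, changed by -0.81 ± 0.09 after NONO knockdown (adjusted P = 5.17e-05) and by 0.43 ± 0.06 after PKM2 knockdown (adjusted P = 4.98e-05). The small rise of the reductase CYB5R3 after NONO knockdown (0.12, adjusted P = 0.0387) was kept in 1 of 6 fits with a library left out and lost on TPM.

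The pathways that use fatty acids were mixed. Of all genes tested, 34.7% were called lower and 33.6% higher after PKM2 knockdown, and 17.2% and 16.2% after NONO knockdown. Of 18 genes of glycerolipid synthesis, 11 fell and 4 rose after PKM2 knockdown, from LPIN3, a phosphatidate phosphatase (-2.05 ± 0.13, adjusted P = 8.33e-08, edgeR), to LPCAT1, a lysophospholipid acyltransferase (1.097 ± 0.05, adjusted P = 2.89e-09). After NONO knockdown 4 fell and 7 rose, from AGPAT4 (-0.50, adjusted P = 0.000213) to DGAT2, which makes triglyceride (0.67, adjusted P = 0.00154). Of 19 genes of fatty acid oxidation, 8 fell and 3 rose after PKM2 knockdown, led by HADH (-1.64 ± 0.07, adjusted P = 3.4e-09) and by the carnitine carrier SLC25A20 (0.58, adjusted P = 0.000557). After NONO knockdown 3 fell and 1 rose, led by CPT1C (-0.51, adjusted P = 0.00472) and ACADVL (0.23, adjusted P = 0.00223). Neither was called on TPM by limma, with CPT1C at an adjusted P of 0.0982 and ACADVL at 0.11 (adjusted P = 0.272). Acyl-CoA synthetases (7 tested of 10) showed 3 lower and 2 higher genes after PKM2 and 0 lower and 3 higher after NONO knockdown. ACSL4, which prefers arachidonic acid, was the largest rise in both, by 0.63 (adjusted P = 4.25e-07) and 0.29 (adjusted P = 0.000589, and 0.0571 on TPM by limma), while SLC27A3 (-0.81 ± 0.30, adjusted P = 0.0292) kept its call after PKM2 knockdown in 2 of 6 fits with a library left out. Of 10 kinase genes that act on lipogenic enzymes, 4 fell and 5 rose after PKM2 knockdown, and the beta subunits of AMP-activated protein kinase were the extremes in opposite directions, PRKAB1 at -1.14 (adjusted P = 1.17e-07) and PRKAB2 at 1.32 (adjusted P = 1.87e-08). After NONO knockdown 0 fell and 4 rose, with PRKAG1 highest (0.44, adjusted P = 0.000334).

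FADS1 had the largest summed change of the members, and its pattern over the 12 libraries, after subtraction of the NC mean of each experiment, was compared with that of 14524 genes. The highest Pearson r were those of CD302 (0.998), DPYSL2 (0.997) and HEG1 (0.997), all lower after PKM2 knockdown, with log2 fold changes of -1.37, -2.88 and -3.02. Among the members, FADS2 (r = 0.990, rank 188) and SCD (r = 0.983, rank 453) came closest to FADS1, then FASN (0.966) and ACLY (0.933). FADS3 was at 0.554, and ELOVL5 (-0.447) and ELOVL6 (-0.435) went the other way. The points share the libraries and rest mainly on the PKM2 knockdown group against the other 9 libraries, so these values describe the order only.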

How the data were processed

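MDA-MB-231 cells were profiled in 12 libraries, 3 for each of 4 groups, and each sample's group and repeat number came from its label. Poly(A) RNA gave paired reads of 150 bases. For each experiment the authors deposited estimated counts and TPM per gene and library, with gene lengths, and their own fold changes and P values, which were not used. The submitters' processing notes name hg19, fastp, HISAT2, StringTie, RSEM, DESeq2, edgeR and limma without roles or versions. Of the identifiers, 96.5% and 96.3% were found in GENCODE 29 (GRCh38), all 10 members included, so locations come from there. Strand handling is not given in the sources used here. Columns per library left unused numbered 0.

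Estimated counts were rounded and tested with edgeR 4.0.16 (R 4.3.3, quasi-likelihood, TMM, filterByExpr defaults) in the 6 libraries of each experiment. The difference between the knockdowns was an interaction over the 12 libraries. P values were Benjamini-Hochberg adjusted over all genes tested. The DEG rule follows the paper's methods. The procedure was tested on simulated data. Named genes were the members, the targeted genes, SREBF1, SREBF2, SCAP and INSIG1. The called gene with the largest fall and rise of each list and the 3 genes most like FADS1 were also named. ELOVL1 and the genes beside the FADS cluster were picked with their values known. The members and lists were chosen with earlier results of these data known. As alternatives, each library was left out in turn, DESeq2 1.42.0 replaced edgeR, factors by relative log expression replaced TMM, the low-count filter was dropped, repeat numbers entered as a block, limma 3.58.1 was run on log2(TPM + 1) where the mean TPM reached 1 (also with 0.1 added, or on all genes), and a trend was taken out by subtracting the medians of 20 bins of length and GC content. Not every marker gene examined is reported here.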

Additional observations from a re-analysis of the deposited data

Results flagged for a closer look

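The change of 8 of the 10 enzymes differed between the PKM2 and the NONO knockdown by edgeR's interaction test (adjusted P below 0.05), and so did that of their regulators SREBF1 and SCAP. Over all genes tested, 27.4% were called lower and 25.7% higher in this difference. The difference, as the log2 change after PKM2 knockdown minus that after NONO knockdown, was -1.52 for FADS1, -1.51 for SCD, -1.15 for FADS2, -0.57 for FASN, -0.36 for ACACA, -0.24 for ACLY and -0.33 for ACSS2. ELOVL6 went the other way, at 0.30. SREBF1 differed by -1.20 and SCAP by -0.49. The calls of ACSS2 and ELOVL6 depended on the libraries kept, and those of ELOVL6 and ACACA were lost in limma on TPM. With the length and GC trend subtracted, FADS2 was at -0.93, FASN at -0.28, ACLY at -0.14, SREBF1 at -0.95 and SCAP at -0.24.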

How the results depend on the processing

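Of 116 counts of members under an alternative, 106 stayed within 1.5 times the reported count, and of 530 log2 fold changes of members 468 were labelled the same. For most alternatives this meant the same direction and side of the threshold. Values with a trend subtracted have no P value and were judged by the size of their move. The count of members lower after NONO knockdown ranged from 2 to 6 with 1 library left out, and the 1 member called higher in the difference became 0 in all 3 limma fits and 0 to 2 with 1 library left out. Values near 0 changed sign. With 1 library left out, the log2 fold changes after NONO knockdown ranged from -0.0318 to 0.1416 for SCD, from -0.0326 to 0.0287 for ACACA and from -0.0194 to 0.0548 for SCAP, and that of INSIG1 after PKM2 knockdown from -0.1342 to 0.0946. INSIG1 there was also 0.0026 by DESeq2, 0.0019 with relative log expression and 0.0013 with the replicate block. With limma on log2(TPM + 1), with or without the filter, and with 0.1 added, SCAP after NONO knockdown was -0.007, -0.007 and -0.0071, ELOVL5 after PKM2 knockdown was -0.0725, -0.0725 and -0.073, ELOVL6 after PKM2 knockdown was -0.0959, -0.0959 and -0.0984, the difference for FADS3 was -0.0281, -0.0281 and -0.0285, and that for ELOVL6 was -0.0871, -0.0871 and -0.0892. The cause was not tested. ACACA after PKM2 knockdown lost its call in limma without the filter (adjusted P = 0.0902). Its difference between the knockdowns lost its call in all 3 limma fits (adjusted P = 0.168, 0.165 and 0.323), as did ACACB after PKM2 knockdown (-0.79, -1.17 and -0.79), and CPT1C and ACADVL after NONO knockdown. The ACSS2 difference was not called by DESeq2 (adjusted P = 0.0694) or with relative log expression (adjusted P = 0.0613). limma called 2645 genes after NONO knockdown (1699 without the filter), against 4954 by edgeR.

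The repeat numbers did not pair the libraries, since same-numbered NC and knockdown libraries had correlations of -0.065 to 0.036. With a replicate block, 4351 genes instead of 4954 were called after NONO knockdown, 10525 instead of 10614 after PKM2 knockdown and 8239 instead of 8497 in the difference, and the ACSS2 difference lost its call (-0.34, adjusted P = 0.0576). With 3 libraries per group, small changes such as those of ACLY and ELOVL6 after NONO knockdown lay at the limit of what could be called, and ACSS2, at 299 to 830 counts per library, had the lowest depth.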
